A study of Mus musculus with 4 samples.

Results

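Sites of tyrosine-phosphorylated STAT3 (pSTAT3-Y705) from leukemic mice under imatinib (CML-TKI) were set against those from normal mice (WT), both in LSK cells. LSK cells are Lin-Sca1+cKit+ bone marrow cells, a population of hematopoietic stem cells and multipotent progenitors. Members were all CML-TKI and WT entries of the deposited peak table outside chromosome Y, with each peak counted once per library. This gave 1510 CML-TKI and 578 WT peaks, together 2088. The whole series held 3218 distinct peaks, a number that includes chromosome Y. All mice were C57BL/6. WT mice were untreated. Leukemic mice were BCR-ABL×SCL-tTA double transgenics, in which the SCL promoter drives the tetracycline transactivator in stem and progenitor cells and the oncogene is expressed once tetracycline is withdrawn. CML-TKI mice also received imatinib, an inhibitor of the BCR-ABL kinase, on alternate days. The dose stands as 200 mg/kg over 4 weeks in the sample label but as 400 mg/kg over 30 days in the protocol text. Oncogene and drug were therefore both absent from WT, and their parts in any difference cannot be told apart by this comparison. An untreated leukemic library (CML) is used below only to divide the CML-TKI sites. Each group was 1 library, the labels give no ages, and nothing states how many mice were pooled.

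STAT3 is a transcription factor that cytokine receptors activate through JAK kinases. Phosphorylation of this tyrosine lets it form dimers that bind palindromic DNA elements and switch on genes of survival, proliferation and inflammation, among them its own gene and feedback inhibitors. In hematopoiesis it transmits signals of interleukin-6 and related cytokines, and in leukemic cells it can remain active when an oncogenic kinase is blocked.

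With 1 library per side no test between groups was possible and no p-value was computed. The table lists peak positions without read counts or enrichment, so depth is unknown, and absence from a list does not show absence of binding. The deposited list is also far shorter than the numbers of sites the study counts, so every share below describes the listed peaks only, not all sites called in these cells. Intervals in parentheses are exact Clopper-Pearson 95% intervals. They cover counting error over peaks only and treat overlapping peaks as independent, so they are too narrow. A gene named here is the one whose transcription start site (TSS) the table gives as nearest, which need not be the gene under control.

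Promoter sequences could be compared for some of the genes. The peaks are in mm9 positions and the sequences are RefSeq promoters of GRCm38.p6, so they were joined through the distance to the TSS, where both annotations gave the same start within 10 bp. Of 164 genes with a CML-TKI peak within 1 kb and a RefSeq promoter, 96 had the same start and a peak that reached into the 250 bases before it. Of these, 67 were new, that is named in CML-TKI and not in WT, and their peak overlapped no WT peak, and 28 were named in both libraries (shared). Shared refers here to the gene name only. At Etv6, Vmn2r89 and Xlr, which are among the 28, the CML-TKI promoter peak overlapped no WT peak. The windows below show where the peak covered a motif, on the strand of the gene, 5′ to 3′, with the motif in capitals. Bcl6 and Gm16675 are the only ones of the 67 and 28 with a STAT element, and the others show the ETS and GC box matches of new promoters, beside Prkag1 as a shared one.
Bcl6 (shared, STAT element, chr16:23988951-23988980, minus strand, -128 to -99): agcaaattagTTCTCAGAAttccagaggcc
Gm16675 (new, STAT element, chr8:46739516-46739545, minus strand, -30 to -1): gcacggctttcatcatTTCTCGGAAaagtc
Mcl1 (new, ETS, chr3:95658647-95658676, plus strand, -74 to -45): gagcgctccggCCGGAAGaggcgcggagtg
Mcl1 (new, GC box, chr3:95658689-95658718, plus strand, -32 to -3): ctccggaaacgcCCGCCCctttcccctttt
Cd47 (new, ETS, chr16:49855440-49855469, plus strand, -214 to -185): aggacacgaagCCGGAAGagagctggctgg
Tnfaip3 (new, GC box, chr10:19015479-19015508, minus strand, -98 to -69): tttctccgggcgGGGCGGgcacggcttaga
Ccng2 (new, GC box, chr5:93267520-93267549, plus strand, -53 to -24): cagtcacgcgccCCGCCCcttgggggcgtc
Prkag1 (shared, ETS, chr15:98831555-98831584, minus strand, -76 to -47): ctcagccaccgCCGGAAGggtgggttcccc

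Nearly all listed WT peaks recurred in the CML-TKI list, and the CML-TKI list named a further 420 genes. Of 1510 CML-TKI peaks, 811 (53.7%, 51.2 to 56.2) overlapped no WT peak by even 1 bp. In the other direction only 11 of 578 WT peaks (1.9%, 0.954 to 3.38) overlapped no CML-TKI peak. Several peaks of a library often overlapped each other. Merging them left 1073 CML-TKI and 407 WT regions, of which 684 (63.7%, 60.8 to 66.6) and 10 (2.46%, 1.18 to 4.47) lacked a partner.

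All 11 WT peaks without a CML-TKI partner were intergenic. They lay near Arid1a (2 overlapping peaks), Atp6v1g3, 2210409E12Rik, Arl4d, Abcg3, 3830403N18Rik, 1600025M17Rik, 4933407K13Rik, 3110007F17Rik and 4932411N23Rik, the last 5 of them on the X chromosome. Arid1a, which encodes a DNA-binding subunit of the SWI/SNF remodeling complex, was the only gene named in WT and not in CML-TKI. Its wider WT peak (mm9 chr4:133369796-133370065) lay at -60395 bp from the TSS. The other WT genes on this list were also named in CML-TKI, 8 of them by peaks at places that overlapped none of their WT peaks.

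Many shared sites carried the same ends in both libraries, so their widths are not independent measurements. Some of these ends were assigned, since a rounded entry took the ends that another library listed for the same accession and distance. Counts of equal ends or widths, here and below, can include such pairs, and their number was not determined. Of 531 WT peaks with known ends, 231 (43.5%, 39.2 to 47.8) had exactly the ends of a CML-TKI peak. Among 342 merged regions that paired one to one, 232 had equal widths, 61 were wider in WT and 49 wider in CML-TKI. Widths therefore give no ground for calling shared sites stronger in either group.

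The sites that WT lacked were narrow. Their median width was 189 bp (quartiles 162 and 241), against 264 bp (186 and 409) for CML-TKI peaks that overlapped WT. Only 12 of 808 with known ends reached 500 bp, against 123 of 672 of the overlapping peaks. Among CML-TKI peaks of 500 bp or wider, 8.89% lacked a WT partner, so the added sites belong almost wholly to the narrow end of the list. Most were not flanks of WT sites. A WT peak lay within 1000 bp of 90 of the 808 (11.1%) and within 10000 bp of 163 (20.2%), and the median gap was 1059924 bp.

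Most of the added sites were also missing from the list of the untreated leukemic library, which held 637 peaks against 1510 in CML-TKI. Of the 811, 199 (24.5%, 21.6 to 27.7) overlapped a CML peak and 612 (75.5%) overlapped neither library. Of the 699 CML-TKI peaks shared with WT, 415 (59.4%, 55.6 to 63.0) overlapped CML, close to the 349 of 578 WT peaks (60.4%, 56.3 to 64.4) that did so. Merged into regions, 128 of 684 added sites (18.7%) overlapped CML.

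**Figure D1:**
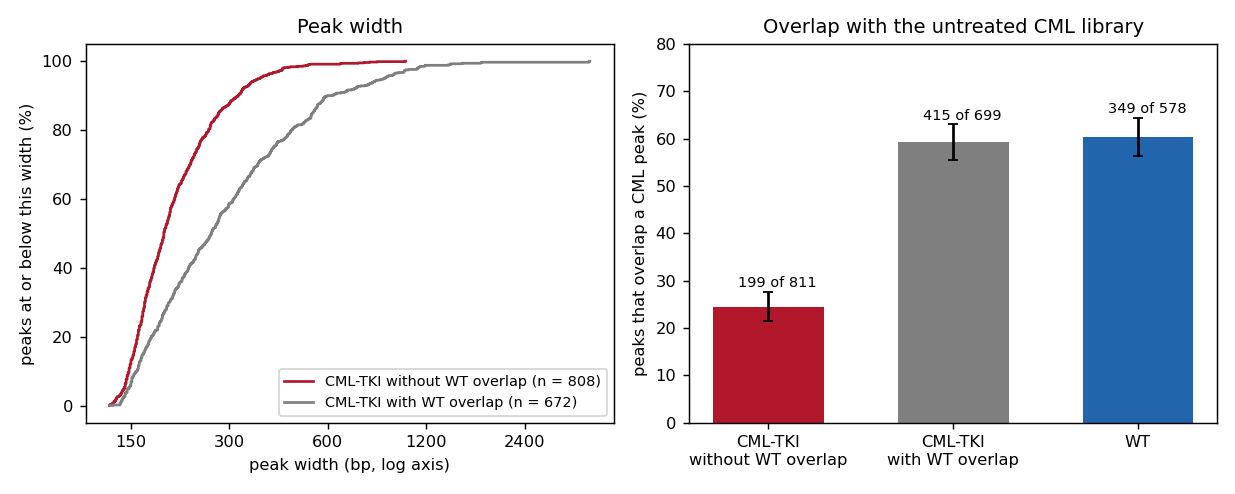
Left, cumulative share of CML-TKI peaks (%) by peak width in bp on a log axis, for 808 peaks without and 672 with WT overlap. Right, percent of peaks that overlapped a peak of the untreated CML library, with exact 95% intervals as error bars: 199 of 811, 415 of 699 and 349 of 578. The curve of peaks without WT overlap runs left of the other, with medians of 189 and 264 bp.

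The added sites lay at promoters more often than the shared sites did. The class promoter-TSS held 140 of 811 peaks without WT overlap (17.3%, 14.7 to 20), 68 of 699 with WT overlap (9.73%, 7.63 to 12.2) and 56 of 578 WT peaks (9.69%, 7.4 to 12.4). Within 1 kb of a TSS lay 21.5% (18.7 to 24.4), 12% (9.7 to 14.7) and 11.9% (9.41 to 14.9). Intergenic peaks made up 51.5%, 59.5% and 58.0%, and introns held 24.3%, 24.5% and 26.0%, so introns took a similar share of all 3 sets. The promoter share was highest among the 612 sites of neither other library, with 23.5% (20.2 to 27.1) within 1 kb, against 15.1% (10.4 to 20.8) of the 199 that overlapped CML.

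Much of this contrast came with a few repeat-rich loci. Led by entries, 10 genes, including the vomeronasal receptor genes Vmn2r121 and Vmn1r238, the centrosome gene Sfi1, Mir101c and the pseudogene Pisd-ps3, held 42.4% of WT peaks, 41.8% of CML-TKI peaks shared with WT and 14.3% of those not shared. Without them the share within 1 kb of a TSS was 24.9% (21.7 to 28.3) for added peaks, 19.4% (15.7 to 23.6) for shared peaks and 19.5% (15.4 to 24.2) for WT, and the intervals overlapped. In merged regions of all loci, with these 10 genes kept, it was 21.3%, 17.2% and 16.0%. The promoter excess of the added sites thus kept its direction but was small once such loci were set aside.

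Repeats separated the sets more sharply. Satellite sequence, the tandem repeats of centromeric regions, held 17 of 811 added peaks (2.1%, 1.23 to 3.34) against 127 of 699 shared peaks (18.2%, 15.4 to 21.2). Without the 10 most listed genes the shares were 1.29% (0.594 to 2.44) and 8.6% (6.06 to 11.8). LTR retrotransposons, the remnants of endogenous retroviruses, held 19.5% (16.8 to 22.4) of added and 14.3% (11.8 to 17.1) of shared peaks. The most frequent repeat among the added peaks was the LTR element RMER16-int, with 43 peaks. No repeat was annotated for 59.2% of added and 45.4% of shared peaks.

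**Figure D2:**
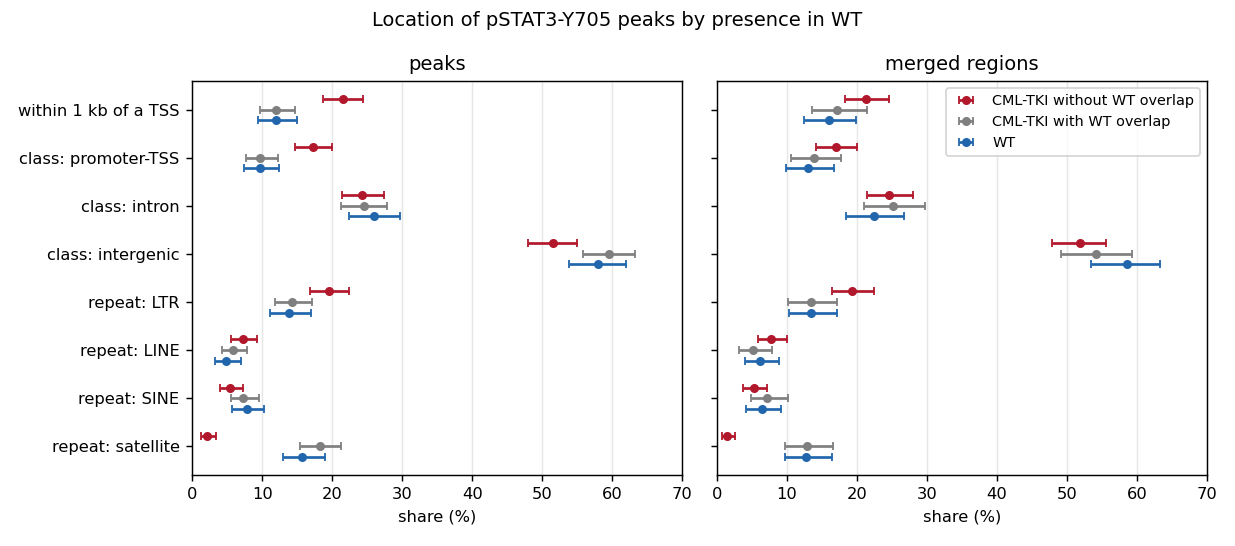
Share (%) of CML-TKI peaks without WT overlap, CML-TKI peaks with WT overlap and WT peaks in each location and repeat class, for peaks (left) and for merged regions (right). Bars are exact 95% intervals. Peaks without WT overlap sit higher within 1 kb of a TSS (21.5% against 12% and 11.9%) and far lower in satellites (2.1% against 18.2% and 15.7%). For merged regions the promoter shares lie closer together.

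By chromosome the added share of CML-TKI peaks was lowest on chromosomes 12 (17 of 54, 31.5%), 9 (50 of 157, 31.8%) and 11 (73 of 199, 36.7%), and highest on chromosome 6 (42 of 51, 82.4%). Sfi1 and Pisd-ps3 lie on chromosome 11 and Mir101c on chromosome 9.

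The table named 678 genes in CML-TKI and 259 in WT. Both libraries named 258, of which 250 shared an overlapping site, and CML-TKI alone of the pair named 420. Of these 420 genes, 83 (19.8%, 16.1 to 23.9) were also named in CML. A peak within 1 kb of the TSS named 137 (32.6%, 28.2 to 37.3), against 72 of the 258 genes of both libraries (27.9%, 22.5 to 33.8). A gene can be new by name without a new site. At 3 of the 137 promoters the peak overlapped a WT peak: Kdm5a and Ccdc77, as well as Trip12 and Fbxo36, share a promoter region and the WT peak was assigned to the partner, and at 6820431F20Rik the WT peak was listed under 2610005L07Rik. The other 134 genes had no WT peak at that site.

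**Figure D3:**
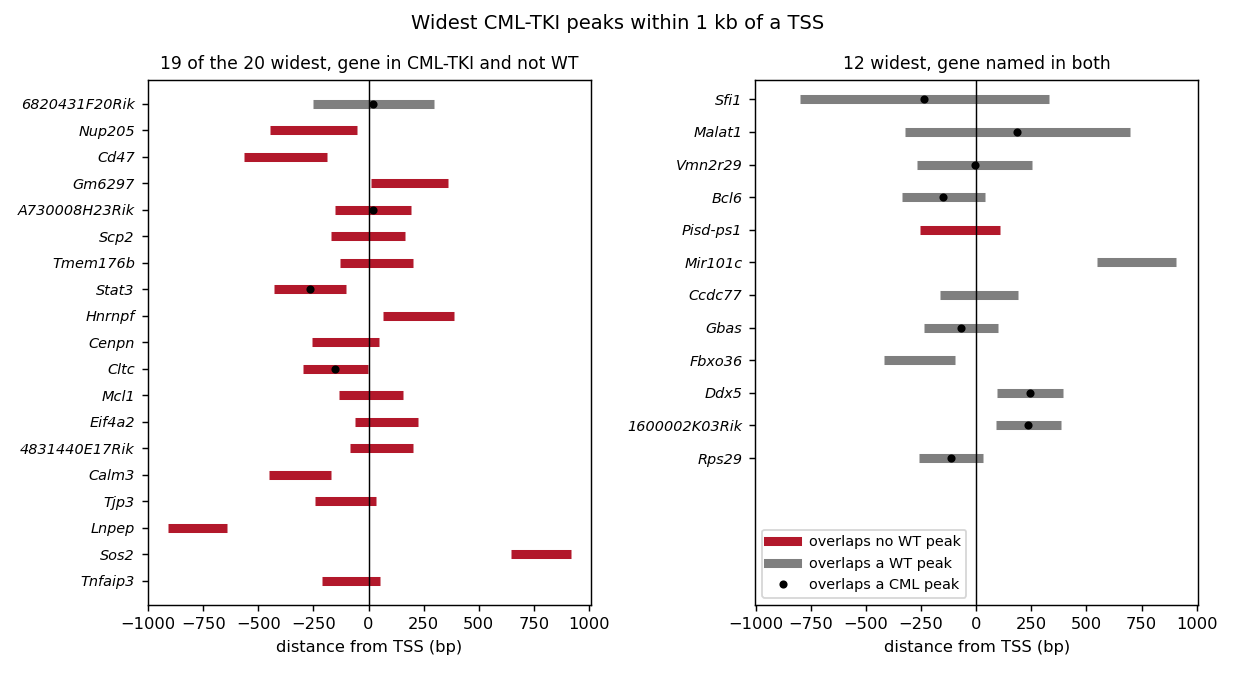
Span of the widest CML-TKI peaks within 1 kb of a TSS, in bp from the TSS (vertical line), for 19 of the 20 widest at genes named in CML-TKI and not WT (left) and the 12 widest at genes named in both (right). Red spans overlapped no WT peak, gray spans overlapped one, and a dot marks overlap with CML. On the left 18 spans are red and 6820431F20Rik is gray. On the right Pisd-ps1 is the only red span.

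The widest added promoter peaks covered genes of general cell function and of signaling. At Nup205, a scaffold protein of the nuclear pore, the peak was 397 bp wide (mm9 chr6:35127169-35127566, -249 bp from the TSS). Cd47, the surface protein that restrains phagocytosis by macrophages, had a 376 bp peak (chr16:49855201-49855577, -378 bp). Neither was listed in CML.

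Scp2, a sterol carrier protein (333 bp), the membrane protein Tmem176b (330 bp), and Hnrnpf, a splicing factor (325 bp), followed. Further down stood Cenpn, a kinetochore protein (307 bp), the clathrin heavy chain gene Cltc (294 bp), the translation initiation helicase Eif4a2 (285 bp), the calmodulin gene Calm3 (279 bp), Tjp3 of tight junctions (277 bp) and the aminopeptidase Lnpep (271 bp). Also among the 20 were Gm6297, A730008H23Rik and 4831440E17Rik, which are named only, and Stat3, Mcl1, Sos2 and Tnfaip3, described below. Over all 165 peaks within 1 kb at genes new by name the median width was 190.0 bp (133 to 552).

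Over all positions, most of the widest added peaks lay at the most listed genes. Of the 10 widest, 3 were at Sfi1 (1036, 850 and 654 bp) and 2 at Pisd-ps3 (803 and 521 bp). Single ones lay near Gm21119 (741 bp), which WT did not name, and Vmn1r238 (527 bp). The other 3 were at genes outside that group, and WT named none of them. Arrdc3, an arrestin-like adaptor that promotes receptor degradation, had a 774 bp intronic peak (chr13:81024891-81025665), and Slc30a4, a zinc transporter, a 658 bp peak in its 3′ UTR (chr2:122507116-122507774). The zinc finger gene Zfp780b had a 523 bp exonic peak that overlapped CML.

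Among genes named in both libraries, the widest promoter peaks of CML-TKI were at Sfi1 (1131 bp), the long noncoding RNA gene Malat1 (1024 bp), Vmn2r29 (521 bp) and Bcl6 (379 bp). The widest WT promoter peak of Bcl6, a transcriptional repressor and STAT target, measured 240 bp. After these came Pisd-ps1 (365 bp), Mir101c (361 bp), Ccdc77 (351 bp), Gbas (333 bp), Fbxo36 (323 bp), the RNA helicase gene Ddx5 (299 bp), 1600002K03Rik (298 bp) and the ribosomal protein gene Rps29 (289 bp). Over 50 genes with promoter widths in both libraries, assigned ends included, 31 were equal, 11 wider in WT and 8 wider in CML-TKI.

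Of the genes named in both libraries, 10 had a CML-TKI promoter peak that WT lacked. Pisd-ps1, Sfi1 and Ddx5, listed above, are among them. At 7 of them, among them Etv6 and Sp110, the WT peaks were all beyond 1 kb. Etv6, an ETS-family repressor needed by adult hematopoietic stem cells, had a 238 bp peak at -183 bp (chr6:133985423-133985661) that neither WT nor CML listed, while its nearest WT peak was 150720 bp away. Ddx5, Sfi1 and Tex14 carried a WT promoter peak at another position.

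Genes of the JAK-STAT pathway and known STAT3 targets, the list closest to the antibody's target, were named in both libraries. CML-TKI named 7 of 46 members (15.2%) and WT 3 (6.52%). Over 21644 protein-coding genes the shares were 2.7% in CML-TKI and 1.03% in WT, and 1.68% were named in CML-TKI and not WT. Every list had therefore to be read against a CML-TKI background above that of WT. The lists and their members were also picked with earlier results of these data known. A share above the background is thus a description and no evidence of enrichment, in this list and in those below. Bcl6, Jak3, the kinase of lymphoid cytokine receptors, and Ccnd3, which encodes cyclin D3, were named in both. The 4 new members (8.7%) included Stat3, Mcl1 and Junb.

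Stat3 carried 3 overlapping CML-TKI peaks upstream of its own TSS, the widest of 327 bp (chr11:100800929-100801256, -267 bp), and CML shared the site. At Mcl1, which encodes an anti-apoptotic BCL2 relative, a 294 bp peak spanned the TSS (chr3:95462507-95462801, centered at 11 bp), and neither WT nor CML listed it. Junb, an AP-1 subunit, had a 154 bp peak at its transcript end. Of the new promoter peaks in this list, that at Stat3 was thus also present in untreated leukemic cells and that at Mcl1 was not listed there.

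Regulators of hematopoietic stem cells differed little between the libraries. CML-TKI named 7 of 40 (17.5%) and WT 5 (12.5%). Shared members were Kit, the stem cell factor receptor, Runx1 and Etv6, both transcription factors, Slamf1, the CD150 antigen, and the receptor Tgfbr2. The 2 added were distal: Gata2, a transcription factor of stem cell maintenance, by a peak at -9003 bp (chr6:88139545-88139766) and Nr4a1, a nuclear receptor linked to quiescence, at -14048 bp. CML listed neither.

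In carbon metabolism and energy sensing CML-TKI named 10 of 84 members (11.9%) and WT 3 (3.57%). Of the 7 added (8.33%), 4 had a peak within 1 kb, where 0.591% of all protein-coding genes gained a name this way. They were Suclg1, a succinyl-CoA ligase subunit of the TCA cycle (262 bp, centered 3 bp from the TSS), Tsc1, which restrains mTORC1 (215 bp, -56 bp), Lipe, the hormone-sensitive lipase (146 bp, -371 bp), and the elongation factor Eef2 (192 bp, 138 bp). Eef2 alone of these was also listed in CML.

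The other 3 were farther away: the growth factor receptor Igf1r at -1034 bp, Pdhx, a pyruvate dehydrogenase component, at 60562 bp, and Pdk1. Pdk1 entries lay on chromosome X with the gene identifier of another gene, so the count is 6 of 84 by identifier. WT shared the promoter peaks of Prkag1, a subunit of the energy sensor AMPK (183 bp, -90 bp), and of Pgam1, the phosphoglycerate mutase of glycolysis (254 bp, -386 bp), with identical ends. The metabolic promoters listed in treated leukemic cells thus comprised these shared ones and the 4 new ones.

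MAPK and PI3K signaling was the list with members in CML-TKI and none in WT. CML-TKI named 7 of 88 (7.95%), and WT named 0. Since WT named only 1.03% of protein-coding genes, a count of 0 among 88 does not set the list apart there. Sos2, a RAS exchange factor, had an intronic peak of 270 bp (chr12:70781922-70782192, 782 bp). Map2k2, the MEK2 kinase, was named by a 157 bp peak in its 5′ UTR and Dusp1, a phosphatase that switches MAP kinases off, by a 198 bp exonic peak. Intergenic peaks lay at -33304 bp from Pik3r1, a regulatory subunit of PI3K, at 33422 bp from the ribosomal S6 kinase gene Rps6ka1 and at -110681 bp from Spry4, an inhibitor of RAS signaling. CML named 3 of the 7, Dusp1 and Pik3r1 among them.

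Of 102 chromatin regulators CML-TKI named 8 (7.84%) and WT 3 (2.94%). The new names were Kmt2a, the histone methyltransferase disrupted in mixed-lineage leukemia (217 bp, -207 bp), Kmt2d, a related enzyme (222 bp, -938 bp), Sirt6, a histone deacetylase (203 bp, 79 bp), the acetyl-lysine reader Brd2 (199 bp, 750 bp), the methyltransferase Setdb1 (157 bp, -20252 bp) and Kdm5a, whose site WT listed under Ccdc77. Arid1b and Smarcd2, both SWI/SNF subunits, were named in both, and Arid1a only in WT. New promoter peaks therefore lay at 4 chromatin genes.

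Among 63 apoptosis and stress genes, CML-TKI named 7 (11.1%) and WT 4 (6.35%). Atf4 and Mdm4, regulators of the stress response and of p53, the superoxide dismutase Sod2 and Pmaip1, a pro-apoptotic BH3-only gene, were shared. Mcl1, the apoptosis inhibitor Birc6 (203 bp, 5′ UTR) and the unfolded protein factor Xbp1 (-34978 bp) were added. These 3 made up 4.76% of the list, against 1.68% of all protein-coding genes. Mcl1 and Birc6 had the peak within 1 kb, and 2 genes are too few to carry a theme.

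Genes of cell division and of RNA handling gained names mainly at promoters. All 7 cell cycle and DNA replication genes added (7 of 195, 3.59%) had the peak within 1 kb, the widest at Cenpn. The others were Ccng2, an atypical cyclin of growth arrest (257 bp, -129 bp), Cdk5rap2 (255 bp), Apitd1 (165 bp), Cenpu (164 bp), Rad54l2 (186 bp) and Cdkn2aipnl (179 bp). Some of these joined the list by a symbol pattern rather than a known role. CML also listed the sites at Cenpu and Cdkn2aipnl. Of all 420 new genes 32.6% had a peak within 1 kb, and 0.591% of all protein-coding genes were new by such a peak. Plk1, a mitotic kinase, was shared (252 bp, identical in WT). Of 210 RNA processing genes 7 were added (3.33%), 5 of them within 1 kb: Snrpb, Srsf7, Hnrnpa2b1, Hnrnpf and Exosc8, which encode parts of the spliceosome, splicing regulators and an exosome subunit. CML listed none of these 5.

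Ribosomal proteins and translation factors had 5 of 232 added (2.16%), all within 1 kb: Eif4a2, Eef2, Eef1a1, Mrpl1 and Fam86. In the ubiquitin pathway 10 of 427 were added (2.34%), 5 of them within 1 kb, namely the proteasome subunit Psmd3, the deubiquitinase Usp3, the conjugating enzymes Ube2l6 and Ube2c, and Klhl24. Membrane traffic had 7 of 251 added (2.79%), with promoter peaks at Vps28, Snx15 and Rab33b. These 3 lists stood close to the 1.68% of all protein-coding genes.

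Adhesion genes were the reverse in position. CML-TKI named 14 of 223 (6.28%) and WT 2 (0.897%), yet 0 of the 12 added had a peak within 1 kb. Their median distance to the TSS was 275504 bp, against 9042 bp over all 420 new genes. The nearest was the integrin gene Itgb7 (6259 bp, intron), and the farthest the cadherin gene Cdh11 (1238021 bp). The 12 added were 5.38% of the list, against 1.68% of all protein-coding genes, and CML also named 6 of them. These names rest on the nearest TSS alone. The background takes no account of distance or of the spacing of genes, so it is a poor measure for this list.

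Zinc finger genes also gained names away from promoters, with 13 of 429 added (3.03%) and 1 of these, Zfp280d, within 1 kb. For solute carriers 6 of 389 (1.54%), for olfactory and vomeronasal receptors 7 of 1465 (0.478%) and for ion channels 1 of 226 (0.442%) were added, below the 1.68% of all protein-coding genes. No histone gene of 85 was named in CML-TKI or WT. Since these libraries named only 2.7% and 1.03% of protein-coding genes, a count of 0 does not set this list apart. Of 1326 microRNA and snoRNA genes 12 were added (0.905%), among them Mir142 of blood cells (-1033 bp) and Mir23a (-3871 bp). The background of protein-coding genes does not serve for noncoding genes.

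**Figure D4:**
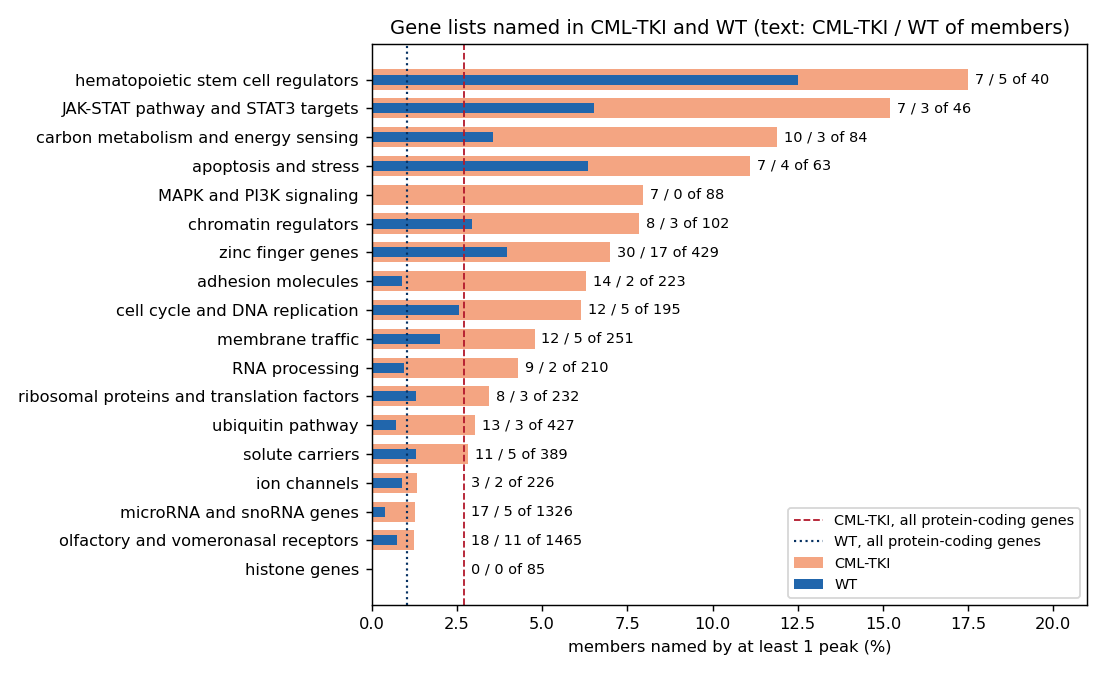
Percent of each gene list named by at least 1 peak in CML-TKI (wide bars) and in WT (narrow bars), with the numbers named and the list size beside each bar. Lines mark all protein-coding genes, 2.7% in CML-TKI and 1.03% in WT. Stem cell regulators (17.5%), JAK-STAT genes (15.2%) and carbon metabolism (11.9%, with Pdk1 counted by name) stand highest in CML-TKI, and histone genes are at 0. The lists were picked with earlier results of these data known, so their height above the lines is no evidence of enrichment.

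A few further genes are described one by one. They were picked from the new promoters after their values were seen, with no list behind them, so no count or share of them bears on any theme. Tnfaip3, which encodes the NF-κB inhibitor A20, had a 264 bp peak at -81 bp (chr10:18735165-18735429). Nfkbiz, an IκB protein induced by inflammatory signals (255 bp, -235 bp), Trib1, a pseudokinase of myeloid cells (233 bp, -30 bp), Nlrp3, the inflammasome sensor (151 bp, 12 bp), and Nfat5 (229 bp, -85 bp) also had promoter peaks listed neither in WT nor in CML. Jun, an AP-1 subunit (262 bp, 593 bp, 5′ UTR), was shared with CML. Fosb was named in all 3 libraries.

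The marker lists were short. Of 15 stem cell markers CML-TKI named 5 and WT 4. Of 11 myeloid markers CML-TKI named Lyz1 and WT 0, both named 0 of 6 B cell and 0 of 7 T and NK cell markers, and both named Nfe2 among 9 erythroid and megakaryocytic markers. With 2.7% of all protein-coding genes named in CML-TKI and 1.03% in WT, counts this small do not set markers of other cell types apart from genes at large, and peaks are not expression, so they say little about the purity of the sort.

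Motifs were counted over the 67 new promoters and the 28 shared by gene name, from which the printed windows come. The STAT element TTCNNNGAA was scarce in both sets. It was found in 1 of 67 new promoters (1.49%, 0.0378 to 8.04) and 1 of 28 shared ones (3.57%, 0.0904 to 18.3), against 1169 of 17274 protein-coding promoters of the same length (6.77%), which lies inside both intervals. Gm16675 is noncoding, and with protein-coding genes alone the counts were 0 of 64 new (interval 0 to 5.6) and 1 of 26 shared promoters (0.0973 to 19.6), so 6.77% then lay above the first interval and inside the second. Other motifs were searched on both strands as well, and none of the 6 contains another. AP-1 (TGANTCA) was found in 5.97% of new, 7.14% of shared and 6.27% of all promoters, and CRE (TGACGTCA) in 0 of 67, 0 of 28 and 2.03%. The CCAAT box (CCAAT) stood at 23.9% (14.3 to 35.9) of new, 32.1% (15.9 to 52.4) of shared and 36.7% of all promoters. The value over all thus lay above the interval of the new promoters and inside that of the shared ones. With protein-coding genes alone it also lay above the interval of the new promoters (23.4%, 13.8 to 35.7).

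Both GC-rich motifs were more frequent in the new promoters than over all promoters, with the value over all below the interval. The ETS core had the same share in the 28 shared promoters. Their wider intervals held the value over all for both motifs, so no contrast between new and shared promoters follows. The GC box (GGGCGG), which Sp-family factors bind, was in 43 of 67 new promoters (64.2%, 51.5 to 75.5), 13 of 28 shared ones (46.4%, 27.5 to 66.1) and 43.2% of all. The ETS core (CCGGAAG) was in 12 of 67 (17.9%, 9.61 to 29.2), 5 of 28 (17.9%, 6.06 to 36.9) and 9.25%. With protein-coding genes alone the new promoters had the GC box in 41 of 64 (64.1%, 51.1 to 75.7) and the ETS core in 12 of 64 (18.8%, 10.1 to 30.5). Not every match lay under the peak: among the 67 new promoters the peak covered a GC box in 21, an ETS core in 8, a CCAAT box in 5 and an AP-1 element in 1. Base composition moved with these matches. A ratio of observed to expected CpG of at least 0.6 was reached by 83.6% (72.5 to 91.5) of new, 82.1% (63.1 to 93.9) of shared and 45.7% of all promoters (82.8% and 84.6% with protein-coding genes alone), and its part in the motif shares was not tested. A match is a string of letters only, and a promoter without one may be bound through other DNA or other proteins.

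**Figure D5:**
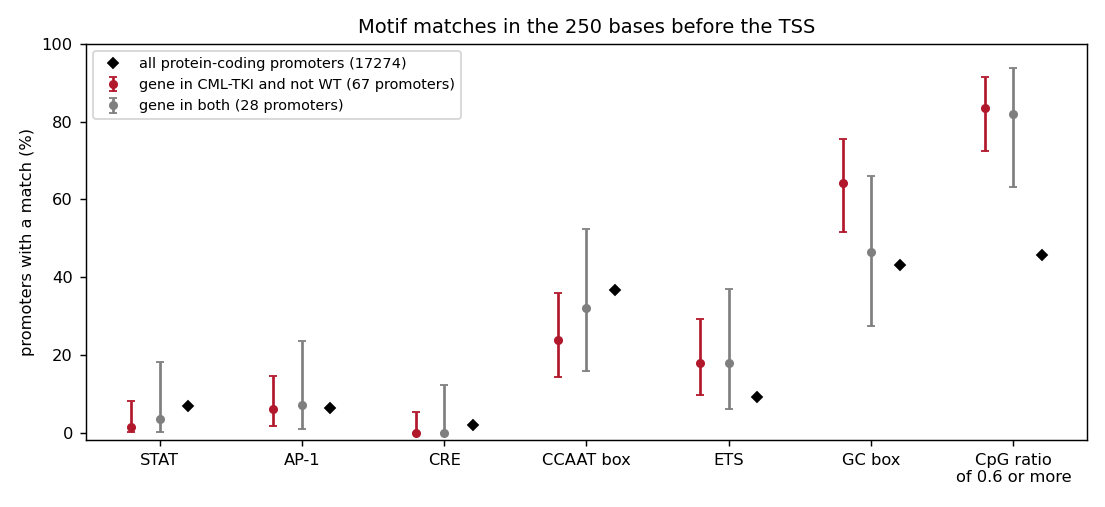
Percent of promoters with at least 1 match to each motif in the 250 bases before the TSS, and with a CpG ratio of 0.6 or more, for 67 promoters of genes new in CML-TKI, 28 of genes in both libraries and 17274 protein-coding promoters (diamonds). Bars are exact 95% intervals. New promoters stand above all promoters for the GC box (64.2% against 43.2%) and the CpG ratio (83.6% against 45.7%). They stand below for the CCAAT box (23.9% against 36.7%), and the STAT element is rare in each set.

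The listing of peaks differed between the sets. Repeat entries with identical positions were collapsed, and 29.3% of added peaks had been listed once, 31.8% 2 times, 29.7% 3 times and 9.12% 4 times. For peaks shared with WT the shares were 58.7%, 27.2%, 14.2% and 0%. What a repeat entry stands for is not given in the sources used here.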

How the data were processed

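An antibody to pSTAT3-Y705 was used for ChIP on chromatin from sorted LSK cells. By the study's methods, reads were cleaned, aligned with bwa mem and called with 4 peak callers, and peaks within 100 bp were merged and annotated with HOMER. The submitters' processing notes also name Partek 8.0, mm9 and mm10, and whether the deposited list came from these steps is not stated. The table as deposited by the authors holds positions, region classes, repeat classes, TSS distances and gene names, and no count, score or fold. Peak ends pass GRCm38 lengths on 6 chromosomes, so positions are taken as mm9, and no sequence was read by peak position. CML and input were outside the comparison, and the input was not analysed here.

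Entries on chromosome Y and repeats were removed. Entries rounded to 1 Mb took the ends of the same RefSeq accession and distance where listed. Otherwise (30 peaks in CML-TKI, 47 in WT) they were compared by distance with an assumed width of 200 bp. Overlap meant at least 1 bp, width is end minus start, and 3 of 679 gene names had no match in the RefSeq gene table (GRCm38.p6). Named genes were every gene of WT alone, the 20 and 12 widest promoter peaks, the 10 widest added peaks, and in each of 18 lists every promoter member and up to 4 others by distance. Some genes that the rule selects are not reported here, and other genes were named after their values were seen. Members and lists were chosen with earlier results of these data known. The motifs, the promoter window, the CpG ratio, the protein-coding subset and the matching of histone genes by synonym were chosen after seeing the table. Alternatives varied chromosome Y, rounded entries, merging, the overlap rule, peak width, the promoter distance, gene identifiers and the most listed genes. The overlap code was tested on simulated data. Python 3.11.15, numpy, pandas, scipy and matplotlib were used.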

Additional observations from a re-analysis of the deposited data

How the results depend on the processing

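No paired analysis was possible because only 1 library stood on each side. Over the alternatives, 54 values stayed within the interval or within 1.5 times the count given, and 43 moved as listed here. The cause was not tested except where fewer peaks were kept or the definition itself was wider.

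With chromosome Y kept, 49.2% of CML-TKI peaks lacked a WT partner. CML-TKI shares were 11.8% promoter-TSS, 20.9% intron, 61.5% intergenic and 14.7% within 1 kb, and WT shares 20.1% intron, 67.4% intergenic and 9.25% within 1 kb. With repeats counted CML-TKI had 3116 entries. Without rounded entries 4.04% of WT peaks lacked a CML-TKI partner, and 21.4% of added peaks overlapped CML. Merged into regions, 63.7% of CML-TKI lacked a WT partner and 18.7% of those overlapped CML. CML-TKI regions were then 15.8% promoter-TSS, 52.7% intergenic and 19.9% within 1 kb, and WT regions 13.0% promoter-TSS, 22.4% intron and 16.0% within 1 kb. Requiring overlap of 50% of the peak left 4.84% of WT peaks without a partner. Counting a peak within 1 kb as shared left 47.7% of CML-TKI peaks without one.

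At 500 bp or wider each library had 135 peaks, 10 genes and 2 list members were new in CML-TKI, and 8.89% of CML-TKI and 0.0% of WT peaks lacked a partner. The excess of CML-TKI peaks over WT thus lay wholly below that width. Without the 10 most listed genes WT had 333 peaks, and 63.1% of CML-TKI peaks lacked a WT partner. CML-TKI shares were then 18.6% promoter-TSS, 51.0% intergenic and 22.9% within 1 kb, WT shares 16.2% promoter-TSS, 20.1% intron, 53.8% intergenic and 19.5% within 1 kb, and added peaks 20.1% promoter-TSS and 24.9% within 1 kb. With a promoter of 5 kb the shares were 26.1% in CML-TKI, 20.8% in WT and 30.0% of added peaks. Counting genes only by peaks within 5 kb left 187 new genes, and 51 new list members in place of 102. By Entrez identifier 427 genes were new.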
